A study of Homo sapiens with 18 samples.

Results

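The genes described here are 10 members of the BCL2 family, MCL1, BCL2, BCL2L1, BCL2A1, PMAIP1, BCL2L11, BBC3, BID, BAX and BAK1, chosen by their symbols among the 57500 genes counted in each library. Of these genes 56898 were paired with a symbol of GENCODE 29, and all 10 members were found, each at its GENCODE 29 position. The 18 libraries, 3 in each of 6 groups, hold polyadenylated RNA of THP-1, a monocytic line derived from a human leukaemia. The cells were stable lines made with lentiviral particles and kept under puromycin, and carried a short hairpin RNA with no target (shNT), one against NR4A2 (shNR4A2) or one against NR4A3 (shNR4A3). NR4A2 and NR4A3 are nuclear receptors whose genes are switched on early by inflammatory stimuli. Each line was rested for 2 h and then left unstimulated (control) or given LPS, the endotoxin of Gram-negative bacteria, at 2.5 μg/ml for 2 h more. Each hairpin is represented by a single line, so the effect of a hairpin and the history of its line cannot be told apart, and whether a line is a clone or a pool is not given in the sources used here.

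Proteins of the BCL2 family decide whether the outer membrane of the mitochondrion stays intact. MCL1, BCL2, BCL-xL (from BCL2L1) and BFL-1 (from BCL2A1) keep cells alive by holding the other members in check, the BH3-only proteins NOXA (PMAIP1), BIM (BCL2L11), PUMA (BBC3) and BID oppose them, and BAX and BAK (BAK1) are the effectors that open the membrane and release cytochrome c. MCL1 is a short-lived protein, and BCL2A1 is a well known target of NF-kappaB, the main transcription factor downstream of LPS.

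Between 16171161 and 23929138 reads per library fell on genes, with a median of 19639071. Levels are given as TPM (the count divided by the summed exon length of the gene, scaled to the same sum in each library) with the SD of 3 libraries. Fold changes and adjusted p-values come from the edgeR quasi-likelihood test with TMM normalization and Benjamini-Hochberg adjustment over all genes tested, and a gene was called at an adjusted p under 0.05. With 3 libraries a group, the smallest 2-sided p that an exact permutation test of a single gene can give is 0.1. The labels do not say that libraries of a group are separate cultures, so the p-values measure the spread between these libraries. The TPM and TMM scales diverged with LPS. The median gene changed by -0.23, -0.28 and -0.24 on the log2 TPM scale in shNT, shNR4A2 and shNR4A3 cells, against -0.01, -0.02 and -0.01 after TMM, so a small drop in TPM with LPS is not a drop relative to the other genes. Replicate 2 of the LPS groups stood apart from its partners, with the lowest BCL2A1 and the highest BCL2 level of the 3 libraries in each line, and results that rest on it are given with and without it.

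The targeted genes were examined first. NR4A2 stood at 62.2, 74.7 and 51.3 TPM in LPS-stimulated shNT cells and at 20.5, 28.3 and 14.8 TPM in LPS-stimulated shNR4A2 cells, without overlap (log2 fold change -1.52, SE 0.19, adjusted p = 0.00265). Unstimulated, its log2 fold change was -0.91 (SE 0.23, adjusted p = 0.0359). NR4A3 stood at 30.9, 32.3 and 31.9 TPM in LPS-stimulated shNT cells and at 17.0, 18.2 and 16.7 TPM in LPS-stimulated shNR4A3 cells (log2 fold change -0.82, SE 0.08, adjusted p = 0.000556). In unstimulated cells NR4A3 was counted 20, 21 and 17 times in shNT and 5, 3 and 1 times in shNR4A3. NR4A1, the third family member, was not called in any comparison between lines. In LPS-stimulated shNR4A3 cells NR4A2 stood at 41.8, 60.7 and 38.3 TPM, each below the shNT library of the same number. The 2 groups overlapped, and NR4A2 was not called by edgeR. NR4A3 stood at 33.0, 32.8 and 36.1 TPM in LPS-stimulated shNR4A2 cells and was not called against shNT by edgeR. TNF, the cytokine used as a check on LPS, rose from 65.3 ± 11.8 to 2118 ± 136 TPM in shNT cells (log2 fold change 5.23).

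The cells carried monocyte genes. SPI1, the myeloid transcription factor PU.1, ran from 532 to 1132 TPM over the 18 libraries and LYZ (lysozyme) from 155 to 1040 TPM, whereas MPO and CD68 reached at most 6.22 and 6.46 TPM. All 10 monocyte markers were counted in every library. Markers of B cells (MS4A1), T cells (CD3E), red cells (HBB), platelets (PPBP) and epithelium (EPCAM) were at or near 0 in all 18 libraries. Of the markers of other cells, PECAM1, which monocytes express too, was the most abundant, at 114 to 289 TPM. Of the 10 monocyte markers 3 were higher than in shNT in unstimulated and 2 in LPS-stimulated shNR4A2 cells, 5 and 4 in shNR4A3 cells, and none was lower. Of all genes 6.45%, 6.96%, 7.23% and 6.45% were called in these comparisons, in the same order. LYZ had a log2 fold change against unstimulated shNT of 1.68 in shNR4A2 and 2.25 in shNR4A3, and CSF1R, the M-CSF receptor, of 0.77 and 1.02. The summed level of the 10 markers was 2241, 2269 and 1926 TPM in unstimulated shNT libraries, 2709, 2655 and 2493 TPM in shNR4A2 and 3378, 3061 and 2944 TPM in shNR4A3. With LPS the sums were 1510, 1347 and 1230 TPM, 2072, 1977 and 1798 TPM, and 2443, 2141 and 2236 TPM in the same order. CEBPA, a myeloid transcription factor, fell with LPS (log2 fold change -2.12 in shNT), and without it the sums of the other 9 were 1121, 1012 and 998 TPM in unstimulated and 1274, 1074 and 1081 TPM in LPS-stimulated shNT libraries. The same sums were 1797, 1535 and 1689 against 1906, 1626 and 1665 TPM in shNR4A2, and 2258, 1780.0 and 1934 against 2293, 1870.3 and 2095 TPM in shNR4A3, so that unstimulated and stimulated libraries overlapped in each line. With LPS 2 of the 10 rose and 3 fell in shNT, 1 rose and 2 fell in shNR4A2, and 1 rose and 3 fell in shNR4A3. Of all genes 11.6% were called higher and 13.3% lower in shNT, 9.23% and 10.1% in shNR4A2, and 13.1% and 15.0% in shNR4A3. The 1 that rose in each knockdown line is a share near that of all genes. PECAM1 was higher in shNR4A2 than in shNT cells in both states (0.63 and 0.70). The part of these shifts in the results below was not tested, and in bulk RNA fewer cells of a type and less RNA per cell cannot be told apart.

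Per length, MCL1 was the most abundant of the 10 members in every group and BCL2A1 or BBC3 the least. The 3 members that changed at least 2-fold with LPS in all 3 lines were BCL2A1 on chromosome 15, BCL2L11 on chromosome 2 and PMAIP1 on chromosome 18. Sequence before their RefSeq start sites (GRCh38.p14) is shown for these 3. They are the members with the largest responses, and the letters that transcription factors of this setting are known to bind were looked for in them. The 250 bases before each start, 14 windows of 9 of the 10 members, were searched for the kappaB consensus by its usual 10 letters, for TGANTCA (AP-1), for AAAGGTCA (NBRE, the element that NR4A receptors bind as monomers) and for GGGCGG (GC box), each on both strands, and for TATAAA on the gene's own strand. MCL1 was not matched. Capitals mark the matches, which overlap no other match.
BCL2A1, chr15:79971249-79971278, minus strand, the 30 bases around TATAAA: gaggaaggatatTATAAAgtgatgcaaaca
BCL2L11, chr2:111120664-111120913, plus strand: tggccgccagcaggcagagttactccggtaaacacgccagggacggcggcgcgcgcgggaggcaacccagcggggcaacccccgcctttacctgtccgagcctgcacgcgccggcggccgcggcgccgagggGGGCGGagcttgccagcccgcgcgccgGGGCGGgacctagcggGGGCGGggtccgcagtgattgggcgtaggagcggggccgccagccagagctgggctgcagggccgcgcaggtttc
PMAIP1, chr18:59899746-59899947, plus strand: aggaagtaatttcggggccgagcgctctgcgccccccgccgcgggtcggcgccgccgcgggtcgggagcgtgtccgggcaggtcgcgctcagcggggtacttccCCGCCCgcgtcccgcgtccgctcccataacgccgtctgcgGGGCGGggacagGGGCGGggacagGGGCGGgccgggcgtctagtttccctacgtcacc

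The windows differed in composition. The BCL2A1 window was 38.8% G and C, a share lower than in all but 10.8% of the 35116 windows of the table (median 58.0%), and held TATAAA from base -70 to base -65 counted back from the start. The BCL2L11 window was 76.8% G and C with 3 GC boxes, and that of PMAIP1 72.8% with 4. GC boxes were also in the windows of BAX (1), which was not called with LPS, and BAK1 (2), which fell, and in 4 of the 5 windows of BID (1 to 4 each). TATAAA, which was also in a window of BCL2L1, was found in 6.8% of all windows and a GC box in 42.6%. The kappaB consensus (9.96% of all windows) and NBRE (1.05%) were found in none of the 14 windows, and the AP-1 letters (6.57%) in that of BBC3 alone, at bases -113 to -107. The absence of letters from a window says nothing of more distant sequence. The BCL2A1 window lies in an exon of the longer GENCODE 29 transcript, so the short stretch alone is printed, and the last 48 bases of the PMAIP1 window, also exonic, are left out. The BCL2L11 window holds no exon bases but lies within the GENCODE 29 gene, which starts at base 111119378.

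In shNT cells 7 of the 10 members were called with LPS, 6 upwards and 1 downwards, where 24.9% of the 15711 genes tested were called, 11.6% as higher and 13.3% as lower. The same 7 members were called, in the same direction, in shNR4A2 cells, where 19.3% of all genes were (9.23% upwards and 10.1% downwards). They were called again in shNR4A3 cells, where 28.1% of all genes were (13.1% upwards and 15.0% downwards). With the replicate number as a block, 30.1% of genes were called in shNR4A2 cells, with the same 7 members. The median log2 fold change of the 10 members was 0.66 in shNT, 0.81 in shNR4A2 and 0.68 in shNR4A3 cells, against -0.01, -0.02 and -0.01 over all genes tested. BCL2A1, MCL1, PMAIP1, BCL2L11, BBC3 and BID rose, BAK1 fell, and BCL2, BCL2L1 and BAX were not called. Survival genes and BH3-only genes were both among those that rose.

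**Figure D1:**
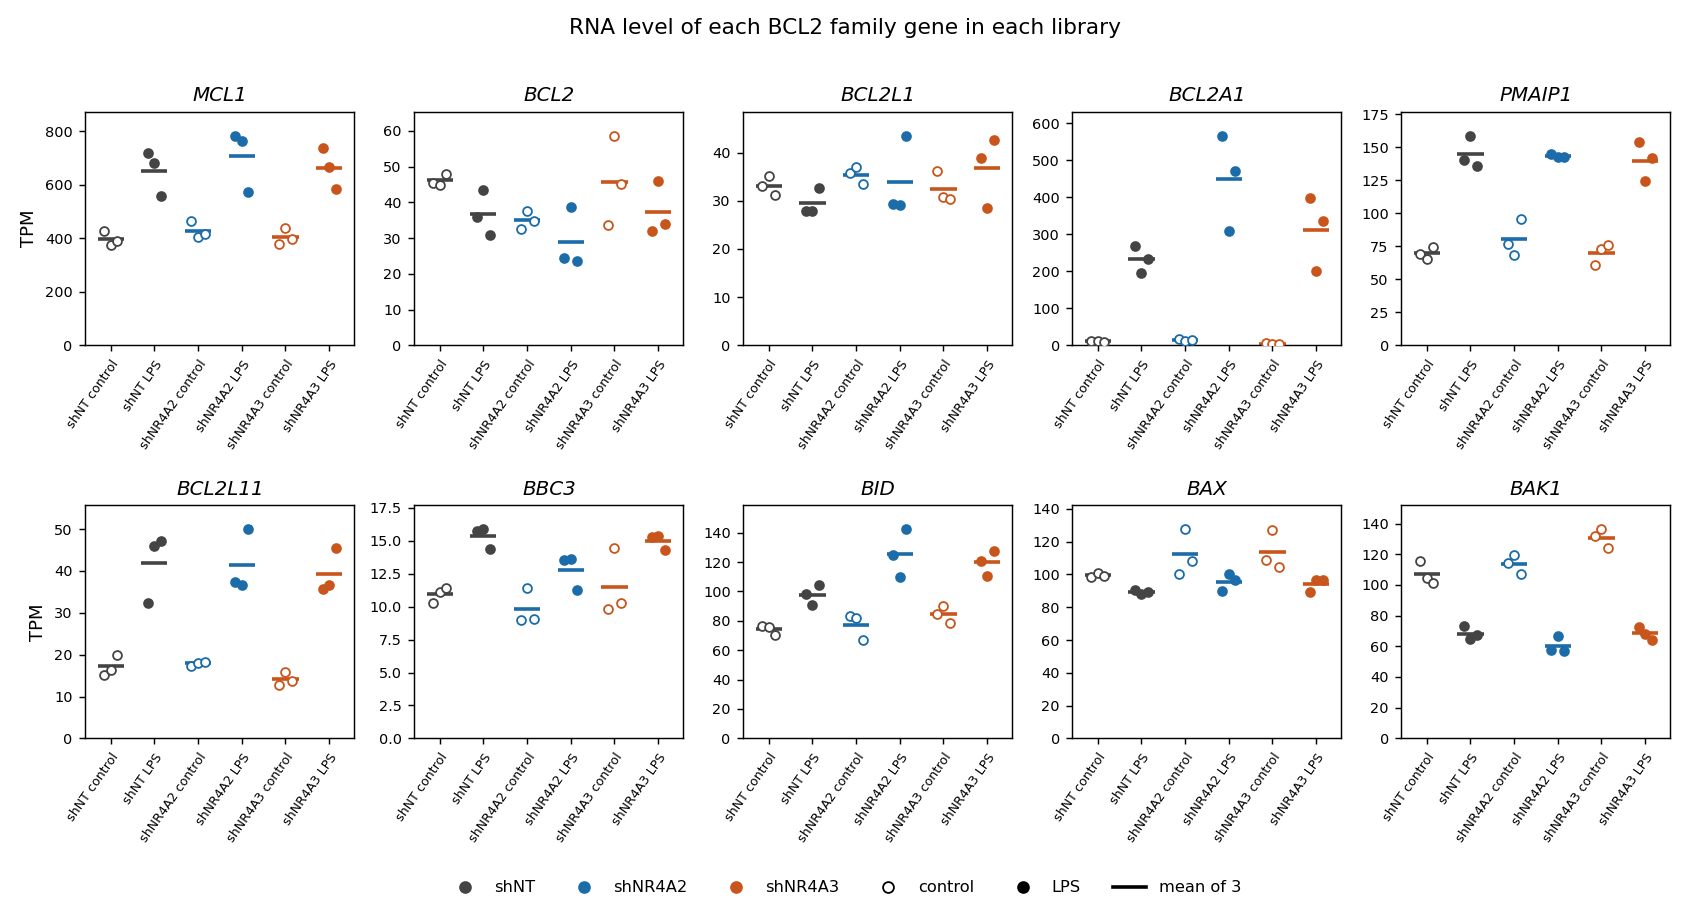
Level of each of the 10 genes in each library, in TPM on axes that start at 0. Open points are control and filled points LPS libraries, colours are the 3 lines and bars the mean of 3 libraries. BCL2A1 went from 3.11 to 16.8 TPM in control libraries to 196 to 567 TPM with LPS, while BCL2 lay between 23.5 and 58.7 TPM and BCL2L1 between 27.9 and 43.5 TPM over all 18 libraries.

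MCL1 (chr1:150574551-150579738, minus strand, GRCh38), the short-lived survival protein that binds BIM, NOXA and BAK, was counted 7912 to 18042 times per library. In shNT cells it stood at 429, 377 and 391 TPM without LPS and at 719, 681 and 559 TPM with LPS. All 3 LPS libraries were above all 3 control libraries, and the log2 fold change was 0.93 (SE 0.10, adjusted p = 6.70e-06). In shNR4A2 cells the libraries read 464, 406 and 418 TPM and then 785, 765 and 575 TPM, a log2 fold change of 0.99 (SE 0.14, adjusted p = 0.000241). In shNR4A3 cells they read 379, 439.8 and 399 TPM and then 739.9, 668 and 586 TPM, a log2 fold change of 0.94 (SE 0.11, adjusted p = 6.38e-05). MCL1 was not called in any comparison between lines, with 95% intervals against shNT that ran from -0.17 to 0.47 at their outermost.

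BCL2A1 (chr15:79960889-79971446, minus strand) had the largest response of the 10 members. Its product BFL-1 is a survival protein of blood cells. Unstimulated shNT libraries held 11.3, 10.7 and 8.38 TPM (48 to 70 counts), and LPS libraries 269, 196 and 232 TPM. The log2 fold change was 4.74 (SE 0.17, adjusted p = 6.96e-11), or 26.7-fold. In shNR4A2 cells 16.8, 12.1 and 14.0 TPM became 567, 309 and 470.0 TPM, a log2 fold change of 5.25 (SE 0.26, adjusted p = 2.52e-08). In shNR4A3 cells 5.86, 3.74 and 3.11 TPM (17 to 32 counts) became 397, 200.2 and 335 TPM, a log2 fold change of 6.43 (SE 0.34, adjusted p = 1.64e-07). In each line the LPS libraries were at least an order of magnitude above the control libraries, and within each LPS group replicate 2 was the lowest.

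**Figure D2:**
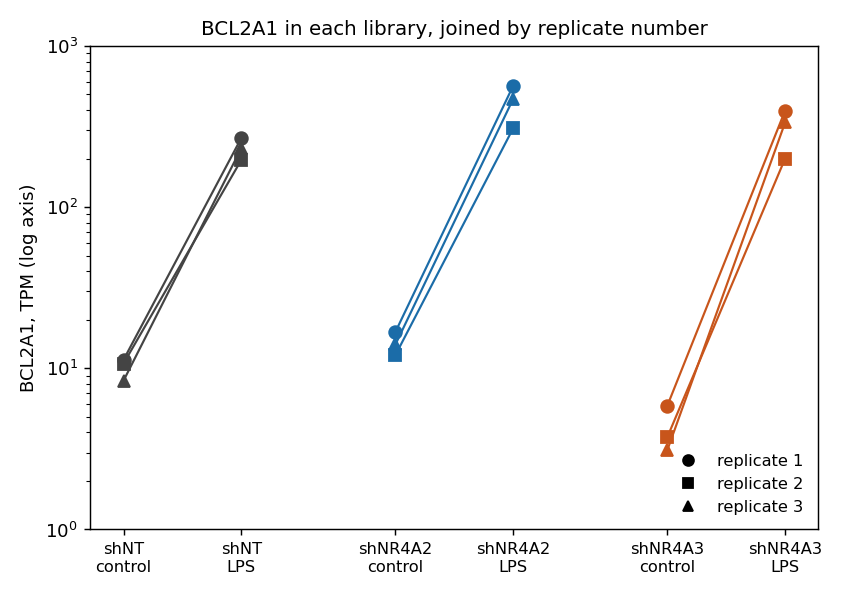
BCL2A1 in each of the 18 libraries, in TPM on a log axis, with control and LPS libraries of the same replicate number joined by a line. The steepest lines are those of shNR4A3, which start from 3.11 to 5.86 TPM.

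BCL2 and BCL2L1 were not called with LPS in any line. BCL2 (chr18:63123346-63320128, minus strand), the founding survival gene of the family, stood at 45.5, 45.0 and 47.9 TPM in unstimulated shNT cells and at 35.9, 43.6 and 30.7 TPM with LPS. The groups did not overlap in TPM, but relative to the other genes the log2 fold change was -0.11 (95% interval -0.33 to 0.10, adjusted p = 0.454), and it was -0.03 in shNR4A2 and -0.07 in shNR4A3 cells. BCL2L1 (chr20:31664452-31723989, minus strand) ranged from 27.9 to 43.5 TPM over all 18 libraries, with log2 fold changes of 0.06, 0.21 and 0.42 in shNT, shNR4A2 and shNR4A3 cells (adjusted p = 0.781, 0.443 and 0.0864). The sign of the first 2 was negative on the TPM scale. With the replicate block, the last was called (log2 fold change 0.40, adjusted p = 0.0157, where 39.4% of genes were called), and it was also called with no filter on low counts (0.42, adjusted p = 0.0101) and without replicate 2 of LPS-stimulated shNR4A3 cells (0.61, adjusted p = 0.00199). Counts per gene do not separate the long and short products of BCL2L1 or MCL1, which have opposing effects on survival, and 43.0% of the BCL2L1 exon length is shared with ABALON on the other strand, which had 16 to 46 counts against 425 to 844.

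The summed RNA of the 4 survival genes was 488 ± 26.8 TPM in unstimulated and 952 ± 98.7 TPM in LPS-stimulated shNT cells. MCL1 made up 81.7% ± 1.05 of it without LPS and 68.5% ± 3.20 with LPS. BCL2A1 went from 2.07% ± 0.28 to 24.5% ± 3.38 in shNT cells, from 2.78% ± 0.31 to 36.6% ± 8.27 in shNR4A2 cells, and from 0.88% ± 0.35 to 29.2% ± 6.94 in shNR4A3 cells (SD, n = 3). MCL1 therefore remained the most abundant survival RNA in each group.

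**Figure D3:**
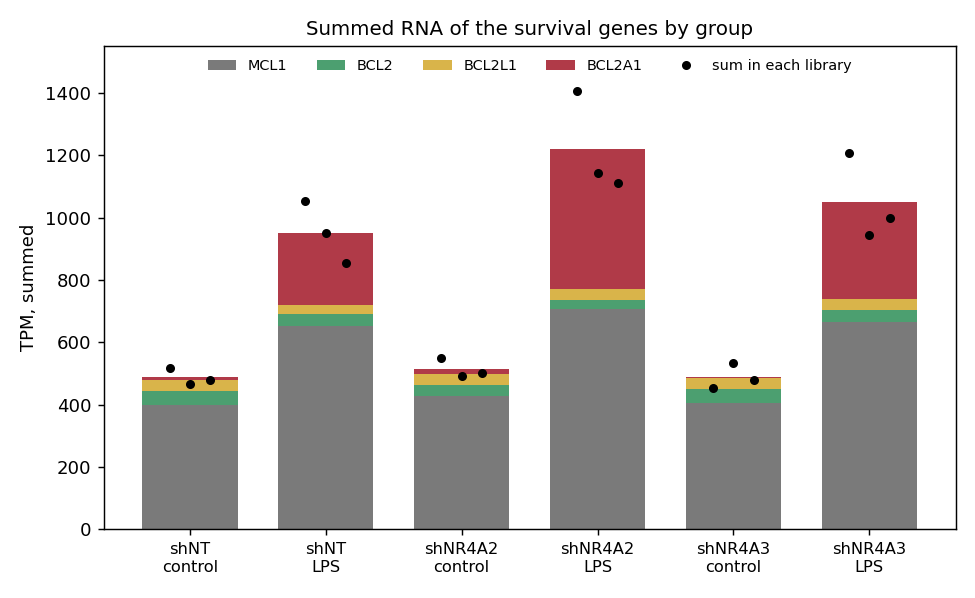
Summed TPM of MCL1, BCL2, BCL2L1 and BCL2A1 in each group, as stacked means of 3 libraries, with a black point for the sum in each library. BCL2A1 is a sliver of the control bars and the second largest part of each LPS bar.

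Among the BH3-only genes, BCL2L11 and PMAIP1 had the larger responses. BCL2L11 (chr2:111119378-111168447, plus strand), which encodes BIM, a protein that binds all the survival members, held 15.2, 16.4 and 19.8 TPM in unstimulated shNT cells and 32.4, 45.8 and 47.1 TPM with LPS (log2 fold change 1.51, SE 0.14, adjusted p = 1.96e-06). The change was 1.48 (SE 0.15) in shNR4A2 and 1.72 (SE 0.12) in shNR4A3 cells, where 12.8, 15.8 and 13.6 TPM became 35.8, 36.7 and 45.5 TPM. PMAIP1 (chr18:59899948-59904306, plus strand), which encodes NOXA, the partner of MCL1 and BFL-1, held 69.5, 65.5 and 74.5 TPM in unstimulated shNT cells and 140.1, 159 and 136 TPM with LPS (log2 fold change 1.27, SE 0.09, adjusted p = 8.69e-08). By group mean it was the most abundant BH3-only RNA of the 4 in LPS-stimulated cells of all 3 lines, at 44.5% to 48.3% of their sum. Single LPS libraries ran from 41.1% to 51.1%, and in shNR4A2 LPS replicate 3 BID (142.7 TPM) was level with PMAIP1 (142.4 TPM). The log2 fold changes of PMAIP1 were 1.10 (SE 0.13) in shNR4A2 and 1.24 (SE 0.12) in shNR4A3 cells. No group of LPS libraries overlapped its controls for BCL2L11 or PMAIP1.

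BID and BBC3 rose less. BID (chr22:17734138-17774770, minus strand), which links death receptors to mitochondria once caspase-8 has cut it, went from 76.4, 75.8 and 70.5 TPM to 97.9, 90.6 and 105 TPM in shNT cells (log2 fold change 0.62, SE 0.10, adjusted p = 0.000354). Its log2 fold change was 0.97 (SE 0.15) in shNR4A2 and 0.74 (SE 0.10) in shNR4A3 cells. BBC3 (chr19:47220822-47232766, minus strand), the gene of PUMA, was the scarcest BH3-only RNA, at 157 to 287 counts per library, with log2 fold changes of 0.71 (SE 0.12), 0.65 (SE 0.17) and 0.62 (SE 0.15) in the 3 lines. The libraries of shNT cells were separate (10.3, 11.1 and 11.4 TPM against 15.7, 15.9 and 14.4 TPM), but those of both knockdown lines overlapped in TPM. The shNR4A2 call was lost (adjusted p = 0.0799 to 0.0828) without replicate 1 or 3 of the control group or replicate 1 of the LPS group.

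The effectors differed from each other. BAK1 (chr6:33572547-33580293, minus strand) fell, from 115, 104 and 101 TPM to 72.9, 64.4 and 67.3 TPM in shNT cells (log2 fold change -0.43, SE 0.10, adjusted p = 0.00614). It fell from 114, 119 and 107 TPM to 57.3, 67.0 and 57.0 TPM in shNR4A2 cells (log2 fold change -0.65, SE 0.12) and from 132, 137 and 124 TPM to 72.8, 68.3 and 64.1 TPM in shNR4A3 cells (log2 fold change -0.71, SE 0.10). BAX (chr19:48954815-48961798, plus strand) had log2 fold changes of 0.06, 0.03 and -0.04 (adjusted p = 0.652, 0.889 and 0.785), with 95% intervals within -0.24 and 0.31 in all 3 lines. The first 2 of these changes were negative on the TPM scale, where BAX stood at 99.4 ± 1.48 TPM without and 89.3 ± 1.28 TPM with LPS in shNT cells.

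**Figure D4:**
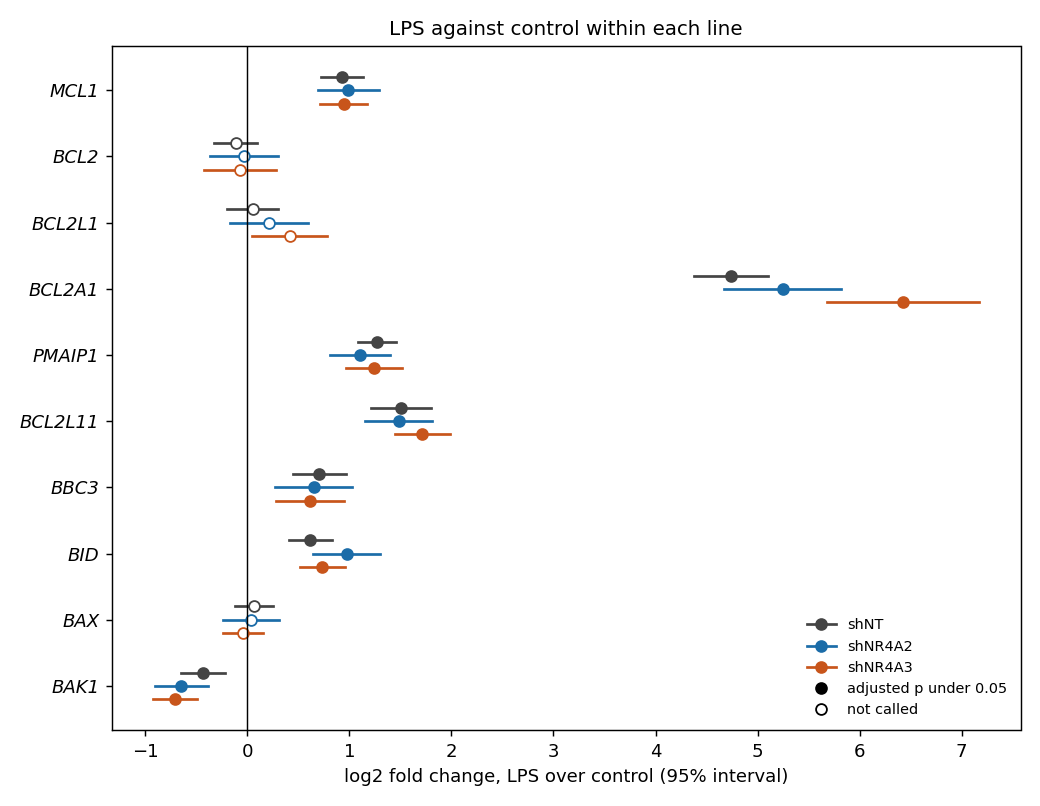
Log2 fold change of LPS over control for the 10 genes in the 3 lines, after TMM, with 95% intervals. Filled points have an adjusted p under 0.05. BCL2A1 lies between 4.74 and 6.43, BAK1 between -0.71 and -0.43, and the other members between -0.11 and 1.72.

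The genes around the family were followed by lists. Of all genes edgeR called 11.6% higher and 13.3% lower with LPS in shNT, 9.23% and 10.1% in shNR4A2, and 13.1% and 15.0% in shNR4A3, the shares to set beside each count. Of 10 NF-kappaB survival targets 9 rose with LPS in each line, TRAF2 alone being not called, with medians of 4.33, 4.84 and 4.69 on the log2 scale. In shNT cells SOD2 (mitochondrial superoxide dismutase), TNFAIP3 (the feedback inhibitor A20) and IER3 had log2 fold changes of 6.55, 5.85 and 5.85. The death receptor list moved both ways, with 2 of 10 genes up and 4 down in shNT, the same numbers in shNR4A2, and 3 up and 4 down in shNR4A3. The 2 that rose in shNT are a share near that of all genes. CFLAR, the inhibitor of caspase-8, rose (log2 fold change 1.38), while FADD, the adaptor of death receptors, and TNFRSF1A, the TNF receptor, fell (-1.31 and -1.13). Of 7 inhibitors of apoptosis and their antagonists 3 rose in each line, BIRC3 (5.45 in shNT), BIRC2 (0.73) and DIABLO (0.71), and none fell. With the replicate block, which called 39.4% of all genes with LPS in shNR4A3 and 30.1% in shNR4A2, 6 of the 7 were called in shNR4A3. CFLAR and BIRC3 are also in the NF-kappaB list.

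Among apoptosome and caspase genes, CYCS (cytochrome c) rose in each line (0.71 in shNT) and CASP2 fell (-0.90), while APAF1 fell in shNT (-0.45) and shNR4A3 cells (-0.70). The block called 5 genes of this list in shNR4A2, where 3 were called without it. Of 12 other BCL2 family genes 9 or 10 passed the filter on low counts. With LPS 1 was called higher in shNT, 3 in shNR4A2 and 2 in shNR4A3 cells, and none lower. The 1 in shNT is a share near that of all genes. BCL2L13 rose in all 3 lines (0.36, 0.41 and 0.43), and BMF, a BH3-only gene, in shNR4A2 (0.53) and shNR4A3 (0.71). BCL2L14, the third in shNR4A2 (2.94), rested on 0 to 4 counts per library without LPS and 9 to 18 with LPS. It passed the filter only through its LPS libraries, so its call is not read as a rise. HRK and BCL2L10 were at or near 0 TPM in all groups. Of 11 transcription factors known to act on BH3-only genes 5 rose and 3 fell in shNT cells, led by JUN (3.07), MYC (-2.74) and ATF3 (2.65), and 5 rose in each knockdown line, while 2 fell in shNR4A2 and 3 in shNR4A3. Of 6 genes of MCL1 protein turnover edgeR and DESeq2 called none in shNT (2 with an unadjusted p under 0.05 by edgeR). HUWE1, a ubiquitin ligase of MCL1, rose in shNR4A2 (0.73) and shNR4A3 (0.88), and the block called 4 of the 6 in shNR4A3. Of 7 mitochondrial channel and remodelling genes VDAC2 (0.32) and VDAC1 (0.24) rose in shNT and VDAC2 (0.31) in shNR4A3. In shNR4A2 edgeR called none of them (2 with an unadjusted p under 0.05), DESeq2 called 1 and the block fit 2, and in shNR4A3 the block called 3.

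For the 3 members past 2-fold in all lines, the genes with the most similar pattern were found among 8901 genes of at least 10 TPM on average, as the root mean square difference of log2(TPM + 1), relative to unstimulated shNT, over 18 libraries. For BCL2A1 these were AC010980.1 (0.49), TNF (0.53) and BIRC3 (0.58). For BCL2L11 they were GDF11 (0.19), UXS1 (0.22) and CYLD (0.22). For PMAIP1 they were TANK (0.13), RNF145 (0.18) and UBE2E1 (0.19).

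Knockdown of NR4A2 was compared with shNT in each state. These comparisons share their shNT libraries with those of NR4A3. Same-numbered libraries deviated together in all comparisons between lines, so the block fit is given where it changes the call of a member. For the lists reported against shNT it is also given where it moves a count by more than 1.5 times. List counts between the knockdown lines are not reported. In unstimulated shNR4A2 cells 1 of the 10 members was called, where 6.45% of genes were called. BCL2 was lower, at 32.6, 37.6 and 34.9 TPM against 45.5, 45.0 and 47.9 TPM, with no overlap (log2 fold change -0.39, SE 0.09, adjusted p = 0.0300). The call held in the block fit, where 23.6% of genes were called. It was lost, at an adjusted p of 0.0836 to 0.105, on leaving out any library but shNR4A2 control replicate 2, and was 0.151 with all 18 libraries in 1 fit. BCL2A1 had a log2 fold change of 0.50 (adjusted p = 0.205).

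In LPS-stimulated shNR4A2 cells 1 of the 10 was called (background 6.96%). BCL2A1 was higher, at 567, 309 and 470.0 TPM against 269, 196 and 232 TPM in shNT, each shNR4A2 library above each shNT library (log2 fold change 1.02, SE 0.23, adjusted p = 0.0320). The call was lost, at an adjusted p of 0.0602 to 0.123, without any 1 library other than shNR4A2 LPS replicate 2, the lowest of its group. BID stood at 124, 109.8 and 143 TPM against 97.9, 90.6 and 105 TPM, also without overlap (log2 fold change 0.42, SE 0.13, adjusted p = 0.0963). With the replicate block 28.1% of genes and 4 members were called, BCL2A1, BID (log2 fold change 0.41, adjusted p = 3.43e-06) and BCL2L1 (0.24, adjusted p = 0.0327) higher and BCL2 (-0.32, adjusted p = 0.000370) lower. Without shNR4A2 LPS replicate 2, BCL2A1 was called with BCL2 (-0.52, adjusted p = 0.0333) and BID (0.55, adjusted p = 0.0150).

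Knockdown of NR4A3 gave 2 calls among the 10 in unstimulated cells (background 7.23%). BCL2A1 was lower, at 5.86, 3.74 and 3.11 TPM against 11.3, 10.7 and 8.38 TPM, without overlap (log2 fold change -1.20, SE 0.29, adjusted p = 0.0244). BAK1 was higher, at 132, 137 and 124 TPM against 115, 104 and 101 TPM (log2 fold change 0.34, SE 0.09, adjusted p = 0.0452). The BCL2A1 call was lost without replicate 1 or 2 of shNT control or replicate 2 or 3 of shNR4A3 control (adjusted p = 0.0734 to 0.0993), and at 0.125 with all 18 libraries in 1 fit, and that of BAK1 was lost without any 1 of the 6 libraries (0.0552 to 0.199). With the replicate block 14.8% of genes were called, and BAX (0.24, adjusted p = 0.0335) and BID (0.23, adjusted p = 0.0322) joined them. TNF was lower in these cells (log2 fold change -1.02, adjusted p = 0.00970), while the log2 fold changes of the 10 NF-kappaB survival targets lay between -0.37 and 0.29, with none called by edgeR or DESeq2 (2 with an unadjusted p under 0.05 by edgeR) and 1 by the block fit.

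In LPS-stimulated shNR4A3 cells edgeR and DESeq2 called none of the 10 against shNT (background 6.45%), although BID, at 121, 111 and 128 TPM against 97.9, 90.6 and 105 TPM, did not overlap (log2 fold change 0.35, SE 0.11, adjusted p = 0.0802). BCL2A1 read 397, 200.2 and 335 TPM against 269, 196 and 232 TPM, with replicate 2 among the shNT libraries (log2 fold change 0.49, adjusted p = 0.255). With the block 21.8% of genes were called, and with them BCL2A1 (0.44, adjusted p = 0.00408), BID (0.35, adjusted p = 0.000736) and BCL2L1 (0.36, adjusted p = 0.0142). The same 3 were called without shNR4A3 LPS replicate 2, at 0.75, 0.44 and 0.56, where the number of genes called went from 1005 to 1693 (adjusted p = 0.00665, 0.0168 and 0.0121).

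**Figure D5:**
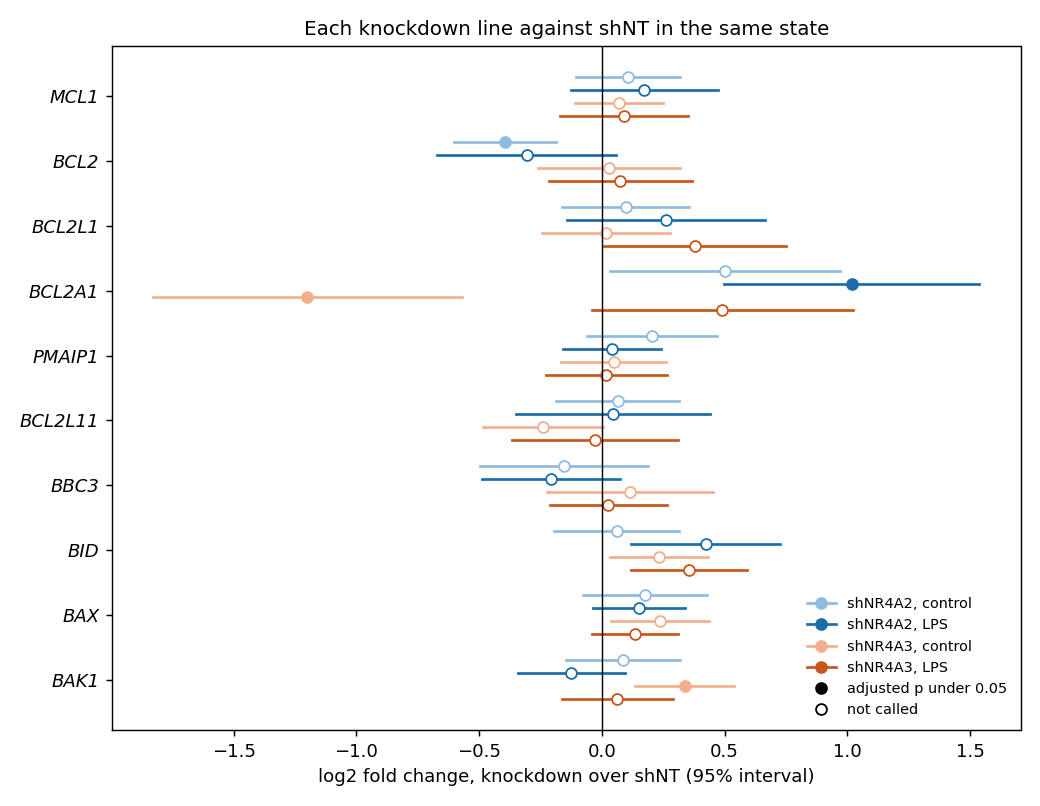
Log2 fold change of each knockdown line over shNT in the same state for the 10 genes, after TMM, with 95% intervals and without the replicate block. Filled points have an adjusted p under 0.05, and only BCL2 and BCL2A1 in shNR4A2 and BCL2A1 and BAK1 in shNR4A3 are filled.

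The knockdown lines were also compared with each other. Unstimulated, BCL2A1 was higher in shNR4A2 than in shNR4A3 cells (16.8, 12.1 and 14.0 against 5.86, 3.74 and 3.11 TPM, log2 fold change 1.70, SE 0.28, adjusted p = 0.00462), the single member called (background 3.08%), and the call held without any 1 library. With the block 11.6% of genes were called, and BCL2 (-0.40, adjusted p = 0.00932), BCL2L11 (0.31, adjusted p = 0.0372) and BAK1 (-0.25, adjusted p = 0.0493) with it. With LPS no member was called by edgeR or DESeq2 (background 2.33%), and BCL2A1 had a log2 fold change of 0.53 (95% interval -0.17 to 1.22). With the block 23.6% of genes were called, and BCL2A1 (0.54, adjusted p = 1.82e-05) and BCL2 (-0.39, adjusted p = 0.000494) among the members.

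Whether the response to LPS differed between lines was tested as an interaction. By edgeR no gene of 16674 (0%) passed for shNR4A2 and none of 16428 (0%) for shNR4A3. Before adjustment 365 and 824 genes were under 0.05, and DESeq2 called 2 and 8 genes, none of them a member. For BCL2A1 the response in shNR4A3 minus that in shNT was 1.69 on the log2 scale and did not pass (SE 0.45, 95% interval 0.73 to 2.65, unadjusted p = 0.00194, adjusted p = 0.718). Its adjusted p was 1.67e-09 with no filter on low counts and 0.0208 without shNR4A3 LPS replicate 2. It also passed with the replicate block, and lay between 0.674 and 1.00 in the 14 remaining settings. For that block, deviations of same-numbered libraries correlated at 0.0266 at the lowest, under the limit of 0.1 set for pairing. Their mean correlations were 0.143 to 0.181. In shNR4A2 the difference in the BCL2A1 response was 0.51 (95% interval -0.23 to 1.26), and the intervals of MCL1 were -0.29 to 0.43 and -0.30 to 0.33.

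Against shNT, edgeR called 6.45% of all genes in unstimulated and 6.96% in LPS-stimulated shNR4A2 cells, and 7.23% and 6.45% in shNR4A3 cells. In LPS-stimulated shNR4A3 cells 4 of the 10 NF-kappaB survival targets and 3 of the 10 death receptor genes were called, CFLAR being in both lists. In LPS-stimulated shNR4A2 cells edgeR called 2 of the former and 0 of the latter (3 with an unadjusted p under 0.05), and DESeq2 3 and 1. In LPS-stimulated shNR4A2 cells BIRC3 (0.58) and TRAF1 (0.85) of the NF-kappaB survival targets were higher, and in LPS-stimulated shNR4A3 cells BIRC3 (0.82), TRAF1 (0.87), TNFAIP8 (0.87) and CFLAR (0.50). Unstimulated, CFLAR alone of this list was called by edgeR, lower in shNR4A2 (-0.52). TNFRSF10A, a TRAIL receptor, was lower in unstimulated shNR4A2 (-0.74), unstimulated shNR4A3 (-0.90) and LPS-stimulated shNR4A3 cells (-1.05), and RIPK1 was higher in the last (0.44). BMF was higher in LPS-stimulated shNR4A3 cells (0.93), BNIP3L in both states of shNR4A3 (0.37 and 0.45), and BCL2L12 in LPS-stimulated shNR4A2 cells (0.40). DNM1L, which divides mitochondria, was lower in both states of shNR4A2 (-0.61 and -0.55), where MYC (-0.62) was lower without LPS. Of the 6 genes of MCL1 protein turnover edgeR called none against shNT in either state of either line, with 2 at an unadjusted p under 0.05 in both states of shNR4A2 and in LPS-stimulated shNR4A3. DESeq2 called 1 in each state of shNR4A2.

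The block fit called more of the listed genes against shNT, and more of all genes. In LPS-stimulated shNR4A2 cells, where it called 28.1% of all genes, it called 6 of the 10 NF-kappaB survival targets and 5 of the 10 death receptor genes. It called 8 of 10 other BCL2 family genes there, 3 of 7 inhibitors of apoptosis and their antagonists (1 without the block), 4 of the 11 transcription factors, 2 of 7 apoptosome and caspase genes and 2 of the 6 genes of MCL1 protein turnover. Without the block edgeR called 0 of the transcription factors and 0 of the apoptosome list, with 2 of each at an unadjusted p under 0.05, and DESeq2 called 0 and 1. In LPS-stimulated shNR4A3 cells (21.8% of all genes) the block called 7 NF-kappaB survival targets, 5 death receptor genes, 8 of 10 other BCL2 family genes, 3 inhibitors of apoptosis and their antagonists (1 without it), 2 genes of MCL1 protein turnover, 1 transcription factor and 1 mitochondrial gene. Of the last 2 lists edgeR without the block and DESeq2 called 0, with 1 transcription factor and 0 mitochondrial genes at an unadjusted p under 0.05.

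Unstimulated, the block called 5 of the 11 transcription factors in shNR4A2 cells (1 without it), 2 apoptosome and caspase genes (1 without it), 2 other BCL2 family genes, 1 inhibitor of apoptosis or antagonist and 1 gene of MCL1 protein turnover, where it called 23.6% of all genes. In unstimulated shNR4A3 cells (14.8% of all genes) it called 2 mitochondrial genes and 1 gene each of the NF-kappaB, apoptosome and inhibitor of apoptosis lists, of which edgeR without the block and DESeq2 called 0. Before adjustment 2, 2, 1 and 1 genes of these lists were under 0.05.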

How the data were processed

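Whole-number counts of reads per Ensembl gene, with exon lengths, were deposited by the authors for 18 polyadenylated RNA libraries read from both ends, 1 file each. Per the labels, the submitters' processing notes name Trimmomatic 0.36, STAR 2.5.2b, featureCounts from Subread 1.5.2 and GRCh38. The strand setting is not given in the sources used here, so reads of overlapping genes on opposite strands may be mixed. No 2 libraries were identical.

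TPM was computed from counts and lengths. Every comparison took only its 6 libraries, and an interaction its 12, in R 4.3.3 with edgeR 4.0.16 (filterByExpr, TMM, quasi-likelihood, Benjamini-Hochberg). Alternatives were DESeq2 1.42.0 (the study's tool), RLE factors, no filter, a replicate block, a single fit of all 18 libraries, a 2-fold limit and each library left out. The lowest correlation of deviations between same-numbered libraries was above 0.1 in 8 of the 9 comparisons of 2 groups (0.159 to 0.354) and 0.0598 for LPS in shNT, and 0.0174 and 0.0266 in the interactions. The paper calls the libraries independent experiments, and the labels do not say what a number marks.

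The 10 genes and the gene lists were chosen with earlier results of these data known. Genes to be named were the members, NR4A1 to NR4A3, TNF, up to 3 genes per list with the largest log2 fold change called in shNT, and up to 2 per list called in each knockdown comparison, and a few more (such as TRAF2, APAF1, HUWE1, RIPK1, BMF with LPS, HRK and BCL2L10) were named after their values were seen. Promoter sequences are RefSeq's, and 9 of the 10 members matched. One list and some genes of the others, to which this rule also applied, are not reported here.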

Additional observations from a re-analysis of the deposited data

How the results depend on the processing

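No result for a member that was called changed sign under any of the settings run. Over 330 member results with LPS, 3 called results were lost and 3 others were called. Over 660 between lines these numbers were 23 and 24, and over 340 interaction results 0 and 3. These totals count each setting of each member, called or not. Only 21 results with LPS and 5 between lines were called in the main fit, so all 23 losses fell on those 5. Against shNT, calls were lost in 6 of 11 settings for BCL2 in shNR4A2 control and 5 of 11 for BCL2A1 in shNR4A2 LPS. In shNR4A3 control they were lost in 5 of 11 for BCL2A1 and 7 of 11 for BAK1. The cause of these losses and gains was not tested. The numbers below are members called of 10 and then genes called.

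Asking for a 2-fold change as well left 3 members and 1188, 1382 and 1574 genes for LPS in shNT, shNR4A2 and shNR4A3. Against shNT it left 0 members and 344 genes in shNR4A2 control, 388 genes in shNR4A2 LPS, 1 member and 282 genes in shNR4A3 control and 350 genes in shNR4A3 LPS, and 214 and 149 genes between the knockdown lines in control and LPS. With no filter on low counts 8 members were called for LPS in shNR4A3 (BCL2L1 added), 1611 genes were called in shNR4A2 control, 2 members and 1843 genes in shNR4A2 LPS, 1 member in shNR4A3 control (BAK1 lost, adjusted p = 0.0540 by edgeR), 2 and 1839 in shNR4A3 LPS, 2 and 838 between the knockdown lines in control, and 1 and 1102 with LPS. In the interactions it called 29 genes for shNR4A2, and 1 member and 138 genes for shNR4A3. With all 18 libraries in 1 fit, 4601 genes were called for LPS in shNR4A2, 0 members in shNR4A2 control, 2 members and 1691 genes in shNR4A2 LPS, 1 member in shNR4A3 control, and 1032 genes between the knockdown lines with LPS. DESeq2 called 698 genes between the knockdown lines with LPS, and 2 and 8 genes in the interactions.

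The replicate block raised the count to 4751 genes for LPS in shNR4A2 and to 3733 in shNR4A2 control. It called 4 members and 4385 genes in shNR4A2 LPS, 4 and 2267 in shNR4A3 control, 3 and 3401 in shNR4A3 LPS, 4 and 1800 between the knockdown lines in control, and 2 and 3666 with LPS. In the interactions, where the lowest correlation of same-numbered libraries was under the pairing limit of 0.1, it called 8 genes for shNR4A2. For shNR4A3 it called 22 genes with 1 member, BCL2A1 (adjusted p = 0.0460 by edgeR). Beyond these and the calls given with the block in the report, it changed no call of a member.

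Leaving out 1 library at a time gave 7 to 7 members and 3033 to 3461 genes for LPS in shNT, 6 to 7 members and 2113 to 3375 genes for LPS in shNR4A2 and 7 to 8 members and 3136 to 4863 genes for LPS in shNR4A3. Against shNT it gave 0 to 1 members and 517 to 1128 genes in shNR4A2 control, 0 to 3 members and 342 to 1477 genes in shNR4A2 LPS, 0 to 1 members and 649 to 975 genes in shNR4A3 control and 0 to 3 members and 383 to 1693 genes in shNR4A3 LPS. It gave 1 to 1 members and 249 to 470 genes between the knockdown lines in control and 0 to 0 members and 94 to 217 genes between them with LPS. It gave 0 to 0 members and 0 to 8 genes in the shNR4A2 interaction and 0 to 1 members and 0 to 44 genes in the shNR4A3 interaction, the member being BCL2A1 without shNR4A3 LPS replicate 2.

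On TMM-scaled RPKM 39 of the 60 group means of members moved by less than 1 SD and 21 by more, with ratios to TPM of 0.904 to 1.11. Of depth, BCL2A1 had 17 to 119 counts in unstimulated libraries, and the other 9 members at least 157 counts in every library.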
